A study of Macaca fascicularis with 48 samples.

Results

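The genes described here are 135 of the 28623 Ensembl gene IDs measured by bulk RNA-seq in the frontal cortex of cynomolgus monkeys (Macaca fascicularis). In each, the level differed widely between animals, and the differences between animals in one set of libraries were closely matched in the other set. They were chosen from the measured values themselves. The level of a gene in a library is given in CPM, the usual depth-scaled count, taken relative to the sum of all counts in that library's file, and on the log2 scale as log2(CPM + 0.5). A member had a mean of at least 1 CPM over 48 libraries and was not among the 30 IDs with the largest summed count. Its level in the libraries with title numbers 1 to 24 had a Pearson r of at least 0.9 with its level in the libraries numbered 25 to 48, taken over 24 animals. The mean log2 level of an animal's pair had to span at least 2 log2 units over the animals. Genes higher in the same library of every animal were left out. Because these values chose the members, the agreement between an animal's libraries and the spread between animals are given as a description and were not tested.

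Each monkey was injected intravenously once, at 200 mg/kg, with hPara.09 (written Para09.v2 in the sample labels), an antibody that activates the microglial receptor TREM2, or with anti-gD, its isotype control. Brain was taken on day 4 or day 28, with 6 animals for each antibody and day and 2 frontal cortex punches per animal, each sequenced as 1 library. Every animal was dosed, so no untreated cortex stands beside the control. The sources used here do not give sex, age, origin, kinship or genotype of the animals, and their part in any difference between animals was not tested.

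In outbred animals, part of the variation in RNA level between individuals is heritable. Sequence variants near a gene can set how much RNA each copy of it makes, and deletions, duplications and retrocopies can remove or add a transcript. Such differences tend to be shared by all samples of an individual, whereas variation in cell composition or dissection can differ from one piece of tissue to the next. This is background, and genotype was not measured here.

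Libraries held 12137146 to 32118950 counts, with overlapping ranges in the 4 groups. The files pair no ID with a gene name and 0 IDs matched the table of gene names used here, so members are given by ID, no function is attached to them, and the cortical identity of the samples could not be checked against marker genes. Together the members took 0.118% to 0.929% of a library's counts. In bulk tissue, fewer cells of a type and less RNA per cell cannot be told apart.

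Of the 28623 IDs, 14339 met the rule on level and are called expressed genes below. Among these, 1144 spanned at least 2 log2 units between animals, 201 had an r of at least 0.9, and 140 met both conditions. The direction rule then left out 5 genes that were higher in libraries 25 to 48 in all 24 animals. The 135 members are 0.942% of the expressed genes. Their r had a median of 0.925, against 0.545 for all expressed genes, and their range had a median of 3.02 log2 units, against 1.02. The median difference between the libraries of an animal was about the same in both, at 0.237 log2 units for the members and 0.244 for all expressed genes. On these medians the members differed from expressed genes in their spread between animals more than in the distance between libraries. The rules on range and r build in this contrast, and the genes were not matched on level.

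**Figure D1:**
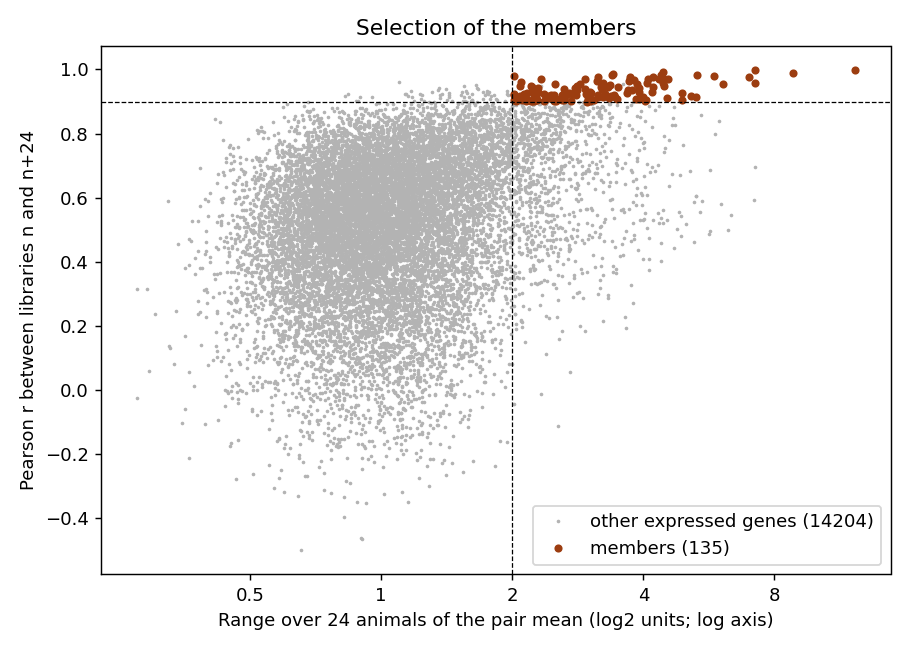
Each point is 1 expressed gene, with the range of its pair mean over 24 animals (log2 units, log axis) against the Pearson r between the libraries of an animal. Dashed lines mark the thresholds of 2 and 0.9. The upper right corner holds 140 genes, the 135 members and those that the direction rule left out. The members continue without a break into the other 14204 genes.

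No gap separated the members from the genes next to them. The members with the lowest r were ENSMFAG00000045307 (r = 0.9001) and ENSMFAG00000001472 (r = 0.9003), and the genes just outside were ENSMFAG00000033924 (r = 0.8999) and ENSMFAG00000029883 (r = 0.8998). On the range, ENSMFAG00000041349 (2.015 log2 units) and ENSMFAG00000000469 (2.019) were just inside, with ENSMFAG00000037055 (1.955) and ENSMFAG00000031233 (1.95) just outside. The direction rule also had members at its limits. They were higher in libraries 25 to 48 in 1 animal (ENSMFAG00000038009) to 23 animals. For many members an r of at least 0.9 depended on 1 animal. Without the animal farthest from the median of each gene, 81 members kept an r of at least 0.9 and 54 did not. Over all members the r without that animal had a median of 0.91 and a lowest value of 0.362. Leaving out the most extreme animal narrows the range, which by itself tends to lower r.

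Members were divided by whether their levels had a step. Animals were put in order of their level, and the largest gap between neighbours was taken as a measure of a step. It was at least 1 log2 unit in 32 members (23.7%), against 152 of the 14339 expressed genes (1.06%). The rule on range favours this contrast. The other 103 members ran from the lowest to the highest animal with no gap of that size. The constant added to CPM before the log makes a gap smaller than the jump in CPM, most of all at low levels. In ENSMFAG00000034674 a gap of 1.909 log2 units was a 71.6-fold jump in CPM. Members at low levels can therefore jump more than 2-fold in CPM and still count as having no step. Both libraries of an animal lay on the same side of the step in all but 1 of the 768 combinations of a stepped member and an animal. The step exceeded the largest difference between the libraries of any animal in 26 of the 32. The rule on r favours both of these results, since it chose genes whose libraries agree.

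In 14 stepped members at least 4 animals lay on each side. ENSMFAG00000023565 was close to absent in 14 animals, at 0 to 0.205 CPM (median 0.0342), and present in the other 10, at 3.80 to 10.7 CPM (median 7.07). No animal lay between these levels, and both antibodies and both days had animals on each side. Only 26 reads of this gene were counted in the 28 libraries of the low animals, 14 of which had none. The r between libraries was 0.993.

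ENSMFAG00000040719 split the animals most evenly. In 11 animals it stood at 0 to 0.0603 CPM (median 0.019), and in 13 at 1.95 to 6.02 CPM (median 2.52). The low side held 10 reads over 22 libraries. The levels did not overlap, and each of the 4 groups had animals on both sides, with 5 high animals in anti-gD day 4, 3 in hPara.09 day 4, 3 in anti-gD day 28 and 2 in hPara.09 day 28.

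Several other members were near 0 in a minority of animals. ENSMFAG00000033055 was at 0 to 0.147 CPM in 4 animals (animals 1, 14, 16 and 23) and at 8.26 to 28.2 CPM in 20. ENSMFAG00000034674 was at 0 to 0.0203 CPM in 5 animals and at 1.45 to 6.15 CPM in 19. ENSMFAG00000000019, an ID of only 69 bases, was at 0 to 0.0596 CPM in 6 animals and at 2.92 to 10.3 CPM in 18. Each of these 3 had animals of both antibodies and of both days among those near 0.

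A step did not always start from 0. ENSMFAG00000030865 was at 0.785 to 1.38 CPM (median 0.962) in 7 animals and at 11.8 to 26.6 CPM (median 13.8) in 17. All its libraries had reads, and the lower level was seen in 0 of 6 anti-gD day 4 animals, 1 of 6 hPara.09 day 4, 2 of 6 anti-gD day 28 and 4 of 6 hPara.09 day 28 animals. ENSMFAG00000036789 was at 1.38 to 2.63 CPM in 18 animals and at 6.61 to 13.2 CPM in 6, and ENSMFAG00000031908 at 4.09 to 8.03 CPM in 20 and at 17.47 to 22.3 CPM in 4. In 10 of the 14 the whole low side lay under 1 CPM.

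**Figure D2:**
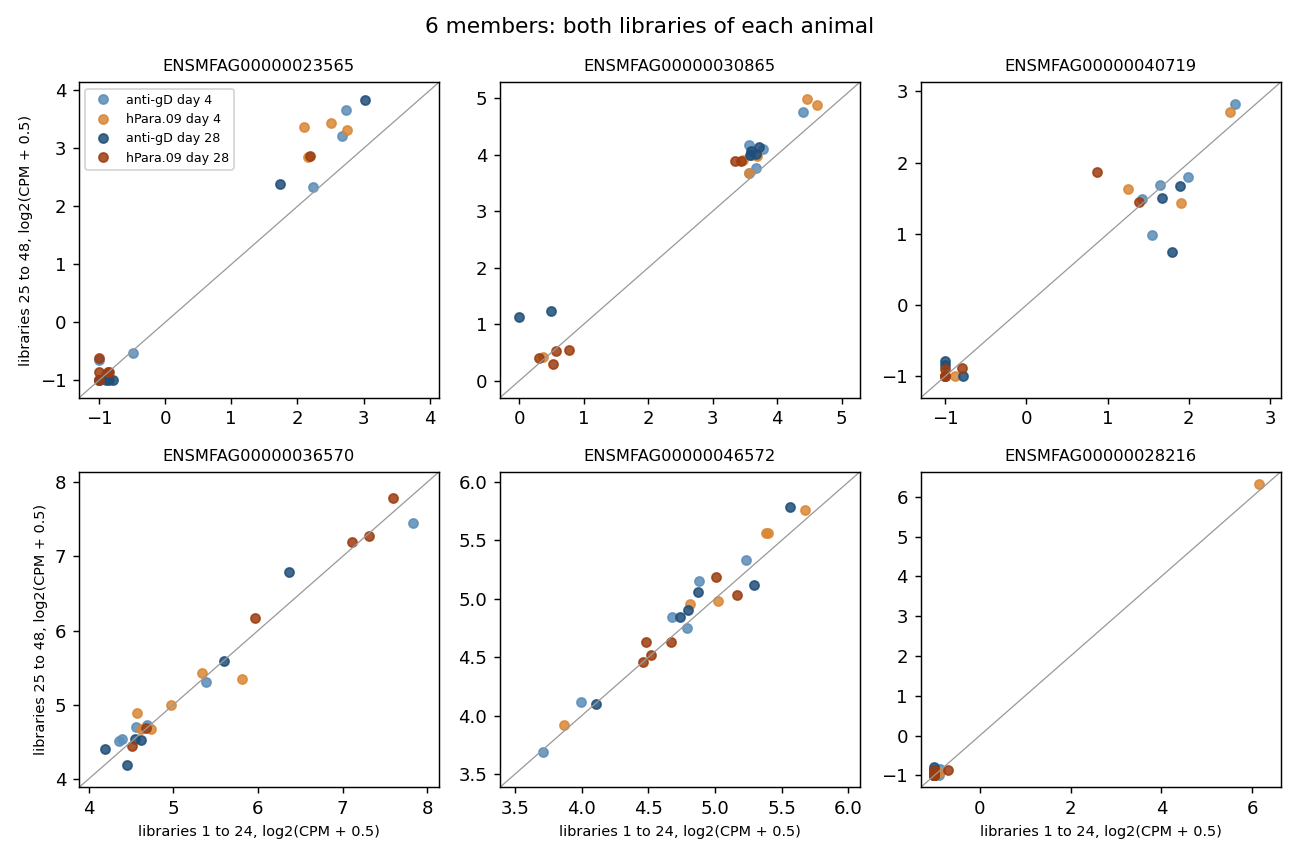
Each panel is 1 member and each point 1 animal, with log2(CPM + 0.5) in libraries 1 to 24 on the horizontal axis, in libraries 25 to 48 on the vertical axis, and the line of equality in grey. The upper panels show 3 members whose animals form separate clusters, the first 2 lower panels show 2 members that run without a step, and the last shows ENSMFAG00000028216, high in 1 animal. The panels were chosen after the values were seen.

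Taken as high or low, these 14 members gave every animal its own pattern, with 24 distinct combinations among 24 animals. With 14 members far more combinations are possible than there are animals. Distinct patterns are therefore likely for any such set, and this was not tested. Any 2 animals differed in 1 to 10 of the 14 members, with a median of 5. An animal was on the high side in 2 to 9 of them. The smaller side was the high one in 8 members and the low one in 6. In 5 of the 14 each of the 4 groups had animals on both sides. In the other 9, at least 1 group of 6 lay wholly on 1 side.

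In 11 stepped members a single animal stood apart, high in 7 and low in 4. ENSMFAG00000028216, an ID of 138 bases, was at 70.5 and 79.6 CPM in the libraries of animal 7 (hPara.09 day 4) and at 0 to 0.0851 CPM in the other 23 animals, where 34 of 46 libraries had no read. ENSMFAG00000044274 was at 26.3 and 43.7 CPM in animal 12 (hPara.09 day 4) and at no more than 3.00 CPM in any other. ENSMFAG00000026973 was at 113 and 119 CPM in animal 8 (hPara.09 day 4), with the other 23 between 11.8 and 32.8 CPM. In each of these 3 members both punches of the animal were high.

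Other members were low in 1 animal. ENSMFAG00000040648 was at 0.365 and 0.419 CPM in the libraries of animal 9 (hPara.09 day 4) and at 12.9 to 35.1 CPM in the other 23 animals. ENSMFAG00000038009 had no read in either library of animal 10 (hPara.09 day 4), among 55236819 counts, where 3 counts would be 0.0543 CPM. The other 23 animals had 2.09 to 19.0 CPM, so animal 10 was at least 38.4-fold lower than the next animal, with the floor of 3 counts taken over both of its libraries. All 11 members with 1 animal apart had an r under 0.9 without their farthest animal, so their place among the members rests on that animal.

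Over all members, 20 had at least 1 library without a read, and 12 had at least 1 animal with none in both libraries, 38 combinations of a member and an animal. A count of 0 in both libraries allows a level of up to 0.0543 to 0.0934 CPM in these animals (3 counts, counting error only).

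**Figure D3:**
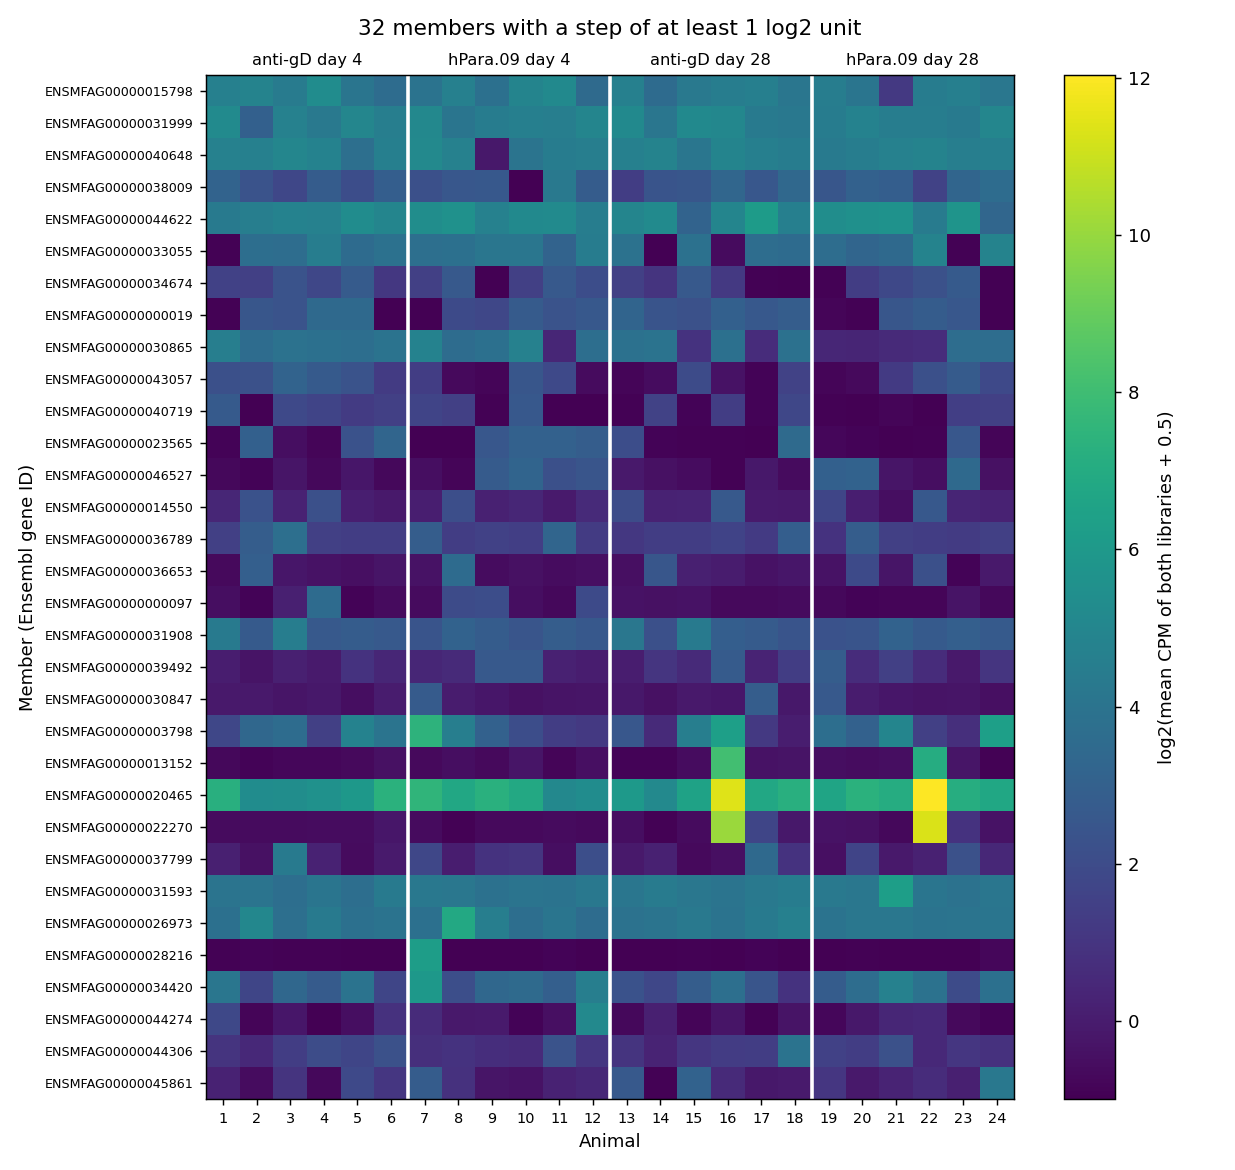
Rows are the 32 members with a step of at least 1 log2 unit, columns the 24 animals in their 4 groups, and the colour is log2(mean CPM of both libraries + 0.5). Dark and light cells sit side by side within every group, members are in order of the number of high animals from top to bottom, and ENSMFAG00000013152, ENSMFAG00000020465 and ENSMFAG00000022270 are brightest in animals 16 and 22.

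Few pairs of members varied closely together. Of 9045 pairs of members, 6 had an absolute Pearson r of at least 0.8 over the 24 animals, the median absolute r was 0.155, and clustering at 0.8 placed 9 members in 4 groups and left 126 alone. These correlations describe the same 24 animals on which the members were chosen, so no p is given. They were not set against pairs of other expressed genes.

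The only group of 3 held the members with the 2 widest ranges, ENSMFAG00000022270 (12.22 log2 units) and ENSMFAG00000013152 (8.84). These and ENSMFAG00000020465 (6.98) all have a width of 264 bases, and all were high in animal 16 (anti-gD day 28) and animal 22 (hPara.09 day 28). Whether these 3 IDs are alike in sequence is not known, nor is how reads shared by near-identical genes were counted. The split of reads among the 3 is therefore uncertain. In animal 16, ENSMFAG00000020465 was at 2480 and 3014 CPM, ENSMFAG00000022270 at 1089 and 1060 CPM, and ENSMFAG00000013152 at 149 and 386 CPM. In animal 22 they were at 3707 and 4703 CPM, 2188 and 2861 CPM, and 131 and 133 CPM. The order of the 3 was the same in all 4 libraries. Their widths are equal, but with the split of reads uncertain the levels cannot be set against each other between the genes.

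In the other 22 animals the 3 members parted. By the mean of each pair of libraries, ENSMFAG00000020465 stood at 33.0 to 187 CPM (median 109), ENSMFAG00000013152 at 0.0273 to 0.331 CPM and ENSMFAG00000022270 at 0.0255 to 2.85 CPM. The last of these had a small second level, at 2.89 and 2.81 CPM in animal 17 and at 1.18 and 1.51 CPM in animal 23. Over 24 animals the r between ENSMFAG00000013152 and ENSMFAG00000022270 was 0.981 with a Spearman rho of 0.387, and without animals 16 and 22 it was 0.485. Between ENSMFAG00000020465 and ENSMFAG00000022270 it was 0.892 with a rho of 0.38, and 0.281 without them. Between ENSMFAG00000013152 and ENSMFAG00000020465 it was 0.895 with a rho of 0.624, and 0.544 without them. All 3 values of r were lower without these 2 animals.

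**Figure D4:**
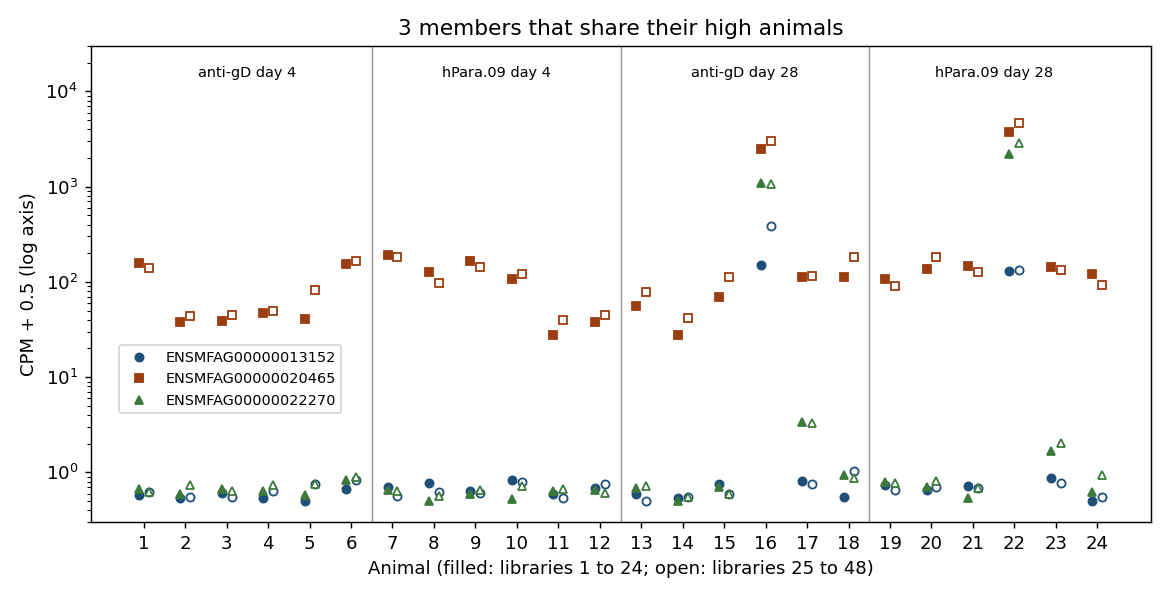
CPM + 0.5 (log axis) of 3 members of equal width in both libraries of each of 24 animals, filled for libraries 1 to 24 and open for libraries 25 to 48. All 3 are high in animals 16 and 22, where ENSMFAG00000020465 reaches 4703 CPM, and in the other 22 animals only ENSMFAG00000020465 has a pair mean of 33.0 CPM or more.

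The remaining 3 groups were pairs. ENSMFAG00000017288 and ENSMFAG00000018905, with widths of 306 and 294 bases, followed each other over the whole range, with an r of 0.947, a rho of 0.908, and an r of 0.919 without the 2 animals farthest from the median. ENSMFAG00000002233 and ENSMFAG00000031644 had an r of 0.808, a rho of 0.753 and an r of 0.74 without 2 animals. ENSMFAG00000015798 and ENSMFAG00000031593 were opposed, with an r of -0.814 that fell to -0.287 without animals 12 and 21. In animal 21 (hPara.09 day 28) ENSMFAG00000015798 was at 2.20 and 1.21 CPM, with 10.9 to 39.6 CPM elsewhere, and ENSMFAG00000031593 was at 75.6 and 81.6 CPM, with 12.4 to 21.6 CPM elsewhere. Both libraries of that animal showed the low and the high level.

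The 103 members with no step of at least 1 log2 unit had a median range of 2.78 and a highest of 4.55 log2 units. Their largest gaps reached 0.9942 log2 units, just under that limit, so the class also holds members with a clear gap. ENSMFAG00000014467, with a largest gap of 0.78 log2 units, is 1 of them. The examples here were chosen after their values were seen, from the 6 with the highest r. ENSMFAG00000036570 ran from 19.2 CPM in animal 17 to 207 CPM in animal 21 (median 26.0), with an r of 0.984 and a median difference of 0.092 log2 units between the libraries of an animal. ENSMFAG00000046572 ran from 12.5 to 52.2 CPM (median 28.7, r = 0.979), and ENSMFAG00000032307 from 9.39 to 86.5 CPM (median 32.3, r = 0.976). ENSMFAG00000000902 covered more, from 0.471 CPM in animal 10 to 22.3 CPM in animal 9 (median 3.34, r = 0.972). The rank order of animals agreed between libraries in all 4, with a Spearman rho of 0.94 to 0.971. Of the 103, 41 had an r under 0.9 without their farthest animal.

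No animal was extreme in most members. The animals most often lowest were animal 10 (hPara.09 day 4, lowest in 15 members) and animal 5 (anti-gD day 4, lowest in 13), and those most often highest were animals 22 and 23 (hPara.09 day 28, highest in 12 each). Over the members, centred per gene, each of the 48 libraries was most like the other library of its animal, with an r of 0.848 to 0.968, a result that the rule on r builds in. Over the other 14204 expressed genes this held for 17 of 48 libraries. Between animals, r over the 135 members was -0.319 to 0.588 (median -0.0517). The closest animals were 16 and 22 (r = 0.588, next 0.284). Without the 3 members of equal width the highest r was 0.28, between animals 5 and 10, so the likeness of animals 16 and 22 came from those 3.

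Members differed from expressed genes in level and width, which the rule did not set beyond its minimum of 1 CPM. Their mean level had a median of 5.40 CPM against 21.4 CPM, and 88 members (65.2%) were under 10 CPM against 33.5% of expressed genes. Per length, in the deposited RPKM (reads scaled for gene width and library size), the median was 1.98 against 4.66. The width had a median of 2402 bases against 2911, and 10 members (7.41%) were narrower than 400 bases, against 3.01%. A range of at least 2 log2 units was reached by 7.98% of all expressed genes. These are counts and medians and were not tested. The members were higher in libraries 25 to 48 in more than 12 of 24 animals for 93 of 135 genes. This held for 6506 of the 14339 expressed genes, and the rule partly used the measure.

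The comparisons of treatment and day used the same counts as the rule, but the rule held no group label. It did select for spread between animals, which also enters the error of these comparisons. The counts of an animal's libraries were added and tested with edgeR over all 16721 genes that passed its filter on low counts, with adjusted p-values over all of them and the animal as the replicate. Of the members 134 were tested and ENSMFAG00000028216 did not pass the filter. The standard errors printed with edgeR are approximate, derived as the absolute log2 fold change over the square root of the F statistic. DESeq2, used as an alternative, gave an adjusted p to 128 members in each comparison. The share of group in the sum of squares of the animals' log2 levels was also taken. Its median was 13.5% in the members and 13.5% in all expressed genes. It was over 50% in 2 members (1.48%), against 1.73% of expressed genes. Group labels without any effect also take up a share, and the size of that share was not computed. The medians therefore do not show how much of the spread treatment or day explained.

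At day 4, no member differed between hPara.09 and anti-gD by edgeR (0 of 134, with 0% of all genes called). At an unadjusted p under 0.05 there were 9 members (6.72%), 6 of them higher with hPara.09, where the background was 2.59% of genes. DESeq2 called 0 members, with 0.00426% of genes called. ENSMFAG00000046527 had the smallest p. It was at 0.0567 to 8.75 CPM (median 4.42) in the 6 hPara.09 animals and at 0.0506 to 0.378 CPM (median 0.113) in the 6 anti-gD animals. Its high level, 3.98 CPM or more, was present in 4 of 6 hPara.09 animals and in none of the 6 controls, and the groups overlapped. On the log2 scale hPara.09 was higher by 4.44 ± 1.09 (standard error, edgeR adjusted p = 0.9999, 0.0585 to 1 over the alternatives).

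ENSMFAG00000001522 was next. Its level was 0.884 to 11.0 CPM (median 5.04) with hPara.09 and 0.726 to 1.86 CPM (median 1.45) with anti-gD at day 4, with 4 of the hPara.09 animals above every control. The log2 difference was 1.93 ± 0.592 (standard error, edgeR adjusted p = 0.9999, 0.782 to 1 over the alternatives). No member had groups that did not overlap at day 4, against 0.108% of genes.

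At day 28 the count was again 0 of 134 by edgeR (0% of all genes called) and 0 by DESeq2 (0.00852% of genes). At an unadjusted p under 0.05 there were 7 members (5.22%), 6 higher with hPara.09, against 4.84% of genes. ENSMFAG00000046527 again had the smallest p, at 0.198 to 10.4 CPM (median 3.88) with hPara.09 and 0.0271 to 0.414 CPM (median 0.224) with anti-gD, high in 3 of 6 against 0 of 6. The log2 difference was 4.23 ± 1.05 (standard error, edgeR adjusted p = 0.947, 0.0818 to 1 over the alternatives). ENSMFAG00000034058 was the 1 member whose groups did not overlap, against 0.132% of genes. All 6 hPara.09 animals (3.19 to 7.93 CPM, median 5.77) lay above all 6 anti-gD animals (1.91 to 2.97 CPM, median 2.37), with a log2 fold change of 1.15 and a standard error of 0.345 (edgeR adjusted p = 0.947, 0.21 to 1 over the alternatives). Its day 4 ranges overlapped, from 2.04 to 6.84 CPM for hPara.09 animals and from 1.43 to 5.84 CPM for controls.

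Whether the antibody difference changed between days was tested as an interaction, and no member passed by edgeR (0 of 134, 0% of all genes called) or by DESeq2 (0.00426% of genes). At an unadjusted p under 0.05 there were 7 members (5.22%), against 4.28% of genes. The smallest p was that of ENSMFAG00000014467, with a log2 difference of -5.01 and a standard error of 1.7 (edgeR adjusted p = 0.9996, 0.315 to 1 over the alternatives). It was at 0 to 0.638 CPM (median 0.088) in anti-gD day 4 and at 0 to 2.68 CPM (median 0.911) in hPara.09 day 4 animals. At day 28 it was at 0.0228 to 4.96 CPM (median 2.71) with anti-gD and at 0 to 1.30 CPM (median 0.338) with hPara.09. All 4 groups held animals near 0, so their ranges overlapped. ENSMFAG00000001522 came next, with a log2 difference of -2.19 and a standard error of 0.816 (edgeR adjusted p = 0.9996, 0.45 to 1 over the alternatives), and its day 28 levels overlapped, with 1.37 to 8.24 CPM (median 2.33) for hPara.09 and 1.36 to 8.30 CPM (median 2.49) for anti-gD.

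Between day 28 and day 4 of the anti-gD animals, 0 of 134 members passed by edgeR (0% of all genes called). At an unadjusted p under 0.05 there were 21 (15.7%), 15 of them higher at day 28, against 10.0% of genes. ENSMFAG00000045453 was at 28.8 to 44.1 CPM (median 31.9) at day 28 and at 35.5 to 142 CPM (median 62.1) at day 4, with a log2 fold change of -1.17 and a standard error of 0.313 (edgeR adjusted p = 0.253, 0.0406 to 0.558 over the alternatives). DESeq2 called this 1 of 128 members (adjusted p = 0.0406), with 0.325% of genes called. The day 4 animals spread more widely, and only the lowest of them fell within the day 28 range. ENSMFAG00000004042 was at 2.52 to 12.1 CPM (median 5.37) at day 28 and 0.588 to 3.11 CPM (median 0.871) at day 4, with a log2 fold change of 2.19 and a standard error of 0.616 (edgeR adjusted p = 0.255, 0.061 to 0.558 over the alternatives). ENSMFAG00000031103 was the 1 member without overlap, against 0.437% of genes, with 10.6 to 20.2 CPM in the later and 3.00 to 10.2 CPM in the earlier animals (log2 difference 0.70 ± 0.231, standard error, edgeR adjusted p = 0.317).

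In the hPara.09 animals 0 of 134 members passed between the days by edgeR, where 0.263% of all genes did. At an unadjusted p under 0.05 there were 26 members (19.4%), 19 higher at day 28, against 18.2% of genes. DESeq2 called 4 of 128 members, against 3.59% of genes. ENSMFAG00000007505 was at 2.26 to 13.6 CPM (median 5.85) at day 28 and 0.823 to 3.82 CPM (median 1.84) at day 4, with a log2 fold change of 1.57 and a standard error of 0.45 (edgeR adjusted p = 0.0841, 0.0162 to 0.397 over the alternatives). It passed with DESeq2 (adjusted p = 0.0162) and in edgeR without animal 19 (adjusted p = 0.0435). ENSMFAG00000022270 followed, with a log2 difference of 11.67 ± 3.36 (standard error, edgeR adjusted p = 0.0925). It rests on animal 22, at 2525 CPM, without which the log2 difference was 1.88 (edgeR adjusted p = 0.764). The days did not overlap in 2 members on summed counts, against 1.65% of genes. ENSMFAG00000046339 had 2.25 to 5.09 CPM in the later and 0.506 to 2.10 CPM in the earlier animals (log2 difference 1.68 ± 0.522, standard error, edgeR adjusted p = 0.112). ENSMFAG00000002233 had 27.7 to 53.3 CPM and 18.9 to 27.8 CPM, so on mean CPM its ranges just touched (log2 difference 0.78 ± 0.276, standard error, edgeR adjusted p = 0.15).

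The comparisons at each day and between days share animals, so their values are not independent of each other. The median standard error of the log2 fold change at day 4 was 0.498 in the members and 0.155 in all genes tested, and the median absolute log2 fold change was 0.362 against 0.0891. At day 28 these were 0.498 and 0.155, and 0.384 against 0.112. A p that misses the threshold in these members does not show that the groups were alike.

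**Figure D5:**
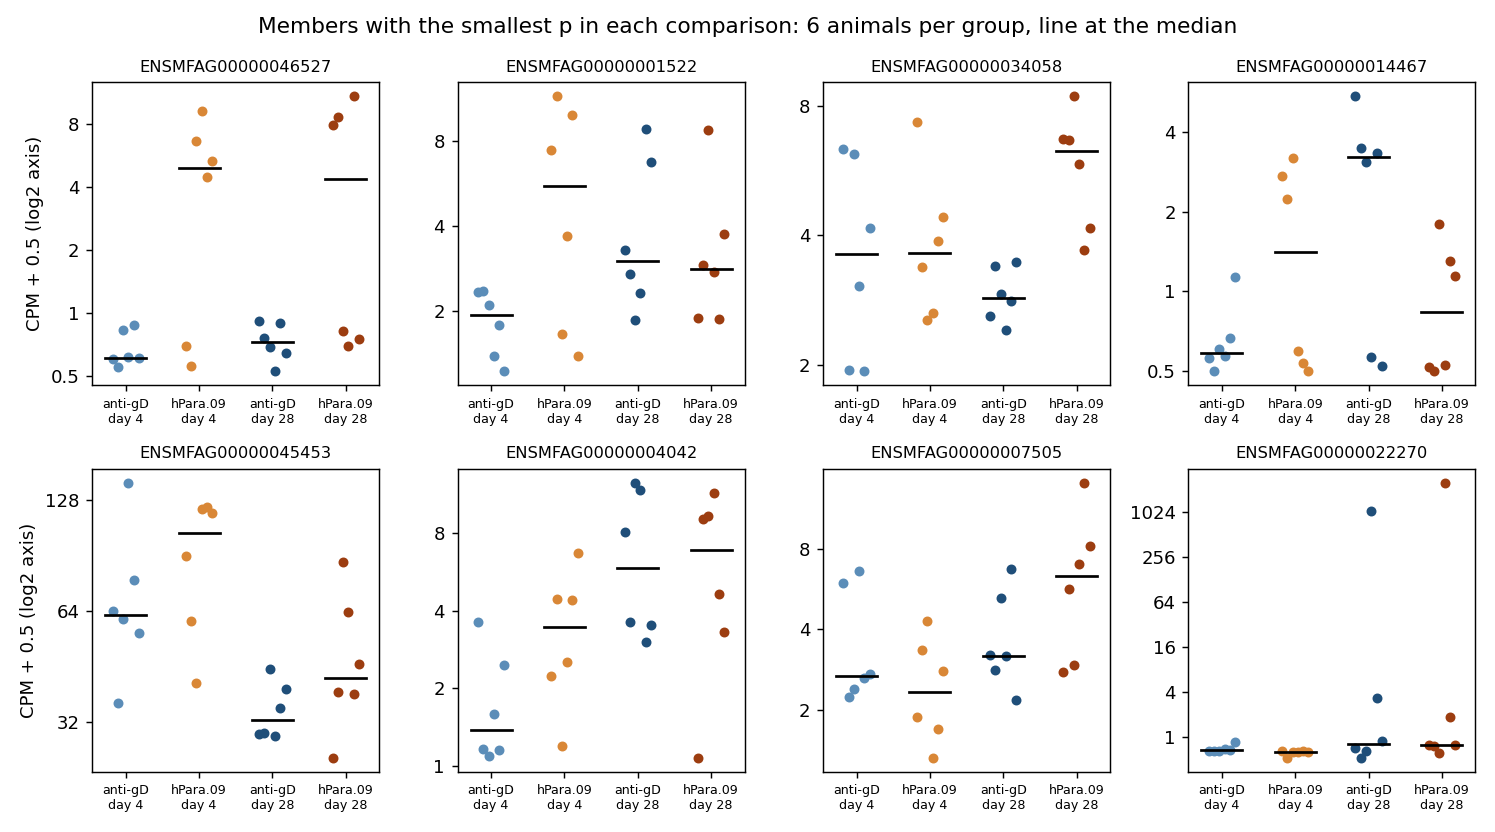
Each panel is 1 member with the smallest p in a comparison, each point 1 animal (mean CPM of both libraries + 0.5, log2 axis), and each line the median of 6 animals. High and low animals occur within groups in most panels, ENSMFAG00000034058 separates the antibodies at day 28 (3.19 to 7.93 against 1.91 to 2.97 CPM), and ENSMFAG00000022270 has single animals at 1075 and 2525 CPM.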

How the data were processed

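Per the file headers, each deposited file gives a whole-number exonic read count, a width in bases and an RPKM value for each Ensembl ID. The submitters' processing notes name GSNAP, an aligner. Its version, the genome build, the annotation, strand handling, and the treatment of multi-mapping reads or of reads that differ from the reference are given in no source used here, so overlapping, antisense and near-identical genes are uncertain. RPKM, as deposited, was used for levels per length only.

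CPM was computed on the sum of each file's counts. Title numbers n and n + 24 carry the same animal label, and the animal was the replicate. Levels per animal are the mean CPM of its libraries. Groups were compared with edgeR 4.0.16 in R 4.3.3 (quasi-likelihood, TMM, default filter, robust dispersions, 1 mean per group) on counts summed per animal, two-sided, with Benjamini-Hochberg adjustment over every tested gene and calls at 0.05. DESeq2 1.42.0, limma 3.58.1 voom, other factors, no filter, each library set alone and each animal left out were tried. The code was tested on simulated counts. Floors cover counting error only. The printed standard errors were derived from the edgeR fits, as the absolute log2 fold change over the square root of the F statistic. They are approximate, since these fits do not report a standard error. The animal was the replicate, so spread between animals enters them.

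Named members are the 8 with the largest range, the 4 with the highest r, the 4 with the highest mean CPM, the 2 with the smallest p in each of 5 comparisons, the 2 most abundant of each co-varying group of at least 3, and those nearest the thresholds. Others were chosen after their values were seen. The gene lists and cell type markers that the plan held could not be used, since no ID has a name. The members and lists were chosen with earlier results of these data known.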

Additional observations from a re-analysis of the deposited data

Results flagged for a closer look

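Each named member was examined in each group of 6 animals for 1 animal far from the rest on the log2 scale. In 84 such sets, 18 animals stood out, in 9 members, where chance gives about 1 in 20 sets. Members were chosen for wide ranges, which favours such cases. Values are mean CPM of both libraries.

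Most were high animals. ENSMFAG00000013152 was at 268 CPM in animal 16 (others of anti-gD day 28 at no more than 0.298) and at 132 in animal 22 (others of hPara.09 day 28 at no more than 0.331). ENSMFAG00000020465 was at 2747 in animal 16 (others up to 149) and 4205 in animal 22 (others up to 160). ENSMFAG00000022270 was at 1075 in animal 16 (others up to 2.85) and 2525 in animal 22 (others up to 1.35). ENSMFAG00000028216 was at 75 in animal 7, ENSMFAG00000044274 at 35.0 in animal 12 (others of hPara.09 day 4 up to 1.05), and ENSMFAG00000023565 at 5.41 in animal 23 (others of hPara.09 day 28 up to 0.076).

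Low animals were fewer. ENSMFAG00000033055 was at 0.0208 CPM in animal 1 (others of anti-gD day 4 at 11.2 or more) and 0.0237 in animal 23 (others of hPara.09 day 28 at 9.02 or more). ENSMFAG00000040648 was at 12.9 in animal 5 (others 24.7 or more) and 0.392 in animal 9 (others 15.7 or more).

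The rest were differences near 0. They were ENSMFAG00000013152 (0.248 CPM), ENSMFAG00000014467 (0.638 CPM) and ENSMFAG00000022270 (0.363 CPM) in animal 6, ENSMFAG00000022270 in animal 8 (0.0318 CPM) and ENSMFAG00000028216 in animal 24 (0.0851 CPM).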

How the results depend on the processing

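The number of members depended on the rule. It was 135 as reported, 89 with a pseudocount of 2 (81 of them shared), 72 with a mean of at least 5 CPM, 66 with Spearman's rho (55 shared), 37 with r of at least 0.95 and 69 with a range of at least 3. It was 111 (101 shared) with CPM on TMM library sizes. Leaving out 1 animal gave 125 to 145 members, and 62 were members whichever animal was left out. Members in co-varying groups went from 9 to 4 at an absolute r of 0.9 and to 2 with Spearman's rho. The count of 32 stepped members stayed within 1.5 times under the pseudocount of 2 and the TMM sizes.

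By edgeR, 0 members passed in any comparison, and leaving out 1 animal gave 0 to 0 at day 4, at day 28, for the difference between days and for the anti-gD days. The hPara.09 days gave 0 to 2, with 1 (ENSMFAG00000000097) without anti-gD animal 4 and 2 (ENSMFAG00000007505 and ENSMFAG00000046088) without animal 19. They also gave 1 (ENSMFAG00000046088) with title numbers 1 to 24 and 4 with DESeq2 (ENSMFAG00000000097, ENSMFAG00000007505, ENSMFAG00000046088 and ENSMFAG00000046339), which gave 1 (ENSMFAG00000045453) for the anti-gD days. The other alternatives gave 0. No fold change of the members with the smallest p changed sign. The cause of these changes was not tested. No paired analysis was possible because each animal received 1 antibody on 1 day and the groups share no replicate number.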
